A study of Mus musculus with 8 samples.

Results

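RNA from thoracic spinal cord was compared with RNA from lumbar spinal cord of mice at postnatal day 14, over both genotypes of the study. All 8 of the 8 libraries enter the comparison, 4 thoracic against 4 lumbar, and each segment holds the same genotypes in equal number. The groups are thoracic TKO, lumbar TKO, thoracic WT and lumbar WT, with 2 libraries in each. TKO mice carry Mir34a-/-, Mir34bc-/- and Mir 449-/-, which are deletions of the loci of the miR-34 and miR-449 microRNAs, and WT mice are C57BL/6J. No treatment is given in the labels. The difference reported is the thoracic minus lumbar effect common to TKO and WT, with genotype as a term in the model. The labels name dissected tissue. They do not say if each library is a different mouse, or if 1 mouse gave both a thoracic and a lumbar library. P-values therefore rest on the spread among these samples alone, part or all of which may be technical.

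Position along the body axis is encoded in the spinal cord by the Hox genes, homeodomain transcription factors that lie in clusters and are switched on in cluster order from neck to tail. Thoracic segments hold the preganglionic neurons of the sympathetic system, motor neurons for the trunk wall and the Clarke column, which relays limb and trunk sense to the cerebellum. Lumbar segments hold the lateral motor columns that innervate the hindlimb, and Hox proteins of paralog group 10 are known to set lumbar motor neuron identity in mice.

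Libraries held 16195212 to 20907819 total gene reads, with 94.7% to 95.6% placed uniquely, and each detected 21685 to 22114 genes. The mitochondrial share was 4.99% to 16.8% of reads and the intron share 4.39% to 6.69%. Over 10532 genes of 10 CPM or more (reads scaled to library size), the root-mean-square log2 difference between a thoracic and a lumbar library of the same genotype had a median of 0.325 (range 0.221 to 0.527, 8 pairs). Libraries of the same segment and genotype differed from each other by 0.371 (range 0.271 to 0.427, 4 pairs). Over these genes, which leave out most of the called ones, the segments were no farther apart than libraries of 1 group.

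Of 17067 genes tested, 17 differed between thoracic and lumbar cord, which is 0.0996% (edgeR's quasi-likelihood test, adjusted p under 0.05). Of these, 4 genes were higher in thoracic cord (0.0234%) and 13 were lower (0.0762%). The lower genes came mostly from the caudal ends of the Hox clusters, which gave 11 of the 13. The other 2 were Pmp2 and Mlip. The higher genes were Vip, Cyp26b1, Hoxc8 and Frem3. An unadjusted p under 0.05 was reached by 415 genes (2.43%), where 853 would be reached without any effect, and the median standard error of a log2 difference was 0.172. Groups that do not overlap, with all 4 thoracic libraries on 1 side of all 4 lumbar libraries, were found for 200 genes (1.17%), 86 higher (0.504%) and 114 lower (0.668%). Of the 17 called genes, 15 did not overlap, with Pmp2 and Mlip as the exceptions. The tissue is a mixture of cells, so fewer cells of a type and less RNA per cell cannot be told apart for any gene below.

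**Figure D1:**
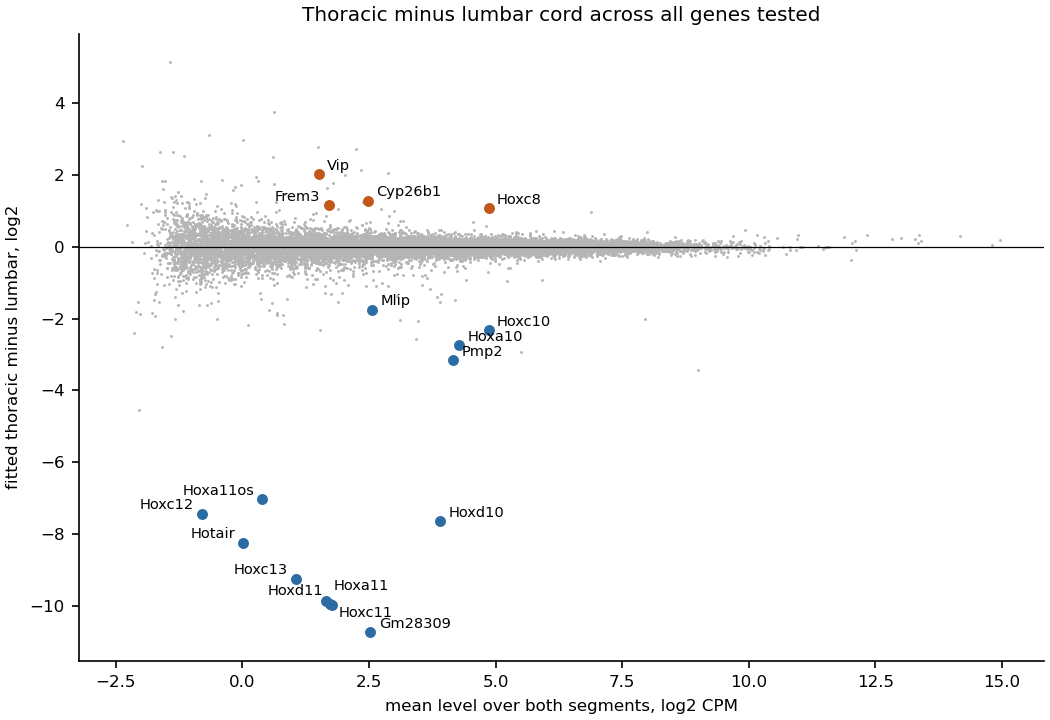
Mean level over both segments (log2 CPM) against the fitted thoracic minus lumbar difference (log2) for the 17067 genes tested, with the 4 genes called higher in orange, the 13 called lower in blue and all others in grey. The fitted differences of the 7 genes with 0 thoracic reads, at the bottom, depend on a small prior count and are no measured fold.

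Hox genes of paralog groups 10 to 13 gave most of the lower genes. Of 12 in the files, 8 had enough reads to test and all 8 were lower in thoracic cord, where 0.0762% of all genes were. Of the 8, the 6 with 0 to 11 thoracic reads passed the filter on low counts through the lumbar libraries, so a test of them could give only a lower call, and the count is a description. The summed level of all 12 was 8.19 to 25.1 CPM in the thoracic libraries and 127 to 148 CPM in the lumbar libraries. Promoter windows of 3 of them are shown because each separates the segments at or near 0 thoracic reads. Each window runs from 250 bases before to 50 after an annotated start (RefSeq, GRCm38.p6, written 5′ to 3′ on the gene's strand). Capitals mark TTTATG on either strand, the core of the CDX-type site, and TATAAA on either strand, the TATA box.
Hoxd10: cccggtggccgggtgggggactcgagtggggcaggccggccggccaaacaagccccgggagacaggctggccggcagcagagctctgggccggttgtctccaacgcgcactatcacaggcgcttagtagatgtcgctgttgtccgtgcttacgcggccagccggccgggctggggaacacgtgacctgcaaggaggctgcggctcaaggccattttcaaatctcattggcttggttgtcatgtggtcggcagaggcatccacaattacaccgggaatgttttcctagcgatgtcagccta
Hoxd11: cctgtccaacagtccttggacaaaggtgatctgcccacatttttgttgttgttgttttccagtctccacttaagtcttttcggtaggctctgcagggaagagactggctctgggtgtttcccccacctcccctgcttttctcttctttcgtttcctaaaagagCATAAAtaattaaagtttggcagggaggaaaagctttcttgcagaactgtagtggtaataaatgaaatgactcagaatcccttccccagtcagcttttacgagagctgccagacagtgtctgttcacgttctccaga
Hoxa11: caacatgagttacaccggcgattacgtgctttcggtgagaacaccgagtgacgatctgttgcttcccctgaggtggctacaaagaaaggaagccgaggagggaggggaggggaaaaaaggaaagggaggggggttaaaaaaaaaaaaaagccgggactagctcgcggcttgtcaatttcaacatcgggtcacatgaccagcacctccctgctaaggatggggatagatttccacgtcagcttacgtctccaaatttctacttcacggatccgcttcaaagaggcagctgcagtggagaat
The windows are chr2:74691641-74691940 on the plus strand for Hoxd10, chr2:74679308-74679607 on the plus strand for Hoxd11 and chr6:52245761-52246060 on the minus strand for Hoxa11. Of the 3 windows, that of Hoxd11 alone held TTTATG, 87 bases before the start and on the opposite strand, and 11.9% of the 32817 windows of this length hold it. TATAAA was in none of the 3 windows shown, against 13.6% of all windows. CDX proteins are upstream regulators of caudal Hox genes in mouse embryos, and a letter match is a description of the window, not a binding site.

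Hoxd10, a determinant of lumbar motor neuron identity (chromosome 2, 74691924 to 74695105, plus strand, mm10), had 0.0555 and 0 CPM in thoracic TKO and 0.51 and 0 CPM in thoracic WT. In lumbar TKO it had 27.7 and 23.0 CPM and in lumbar WT 32.6 and 36.2 CPM. Thoracic libraries were at or near 0, and 10 of their 11 reads lay in WT replicate 1. Over the segments this made 11 thoracic reads against 2194 lumbar reads, a lumbar-to-thoracic ratio of 204 (95% counting interval 114 to 409, adjusted p = 9.93e-05). Hoxa10, its paralog (chromosome 6, 52231197 to 52240854, minus strand), was present in both segments, at 4.77 and 3.59 CPM in thoracic TKO, 8.98 and 3.19 in thoracic WT, 29.5 and 33.1 in lumbar TKO and 37.5 and 35.5 in lumbar WT. The lowest lumbar library was more than 3-fold above the highest thoracic library. The means were 5.13 ± 2.65 CPM in thoracic cord and 33.9 ± 3.43 CPM in lumbar cord (SD, n = 4 libraries each), a log2 difference of −2.74 (SE 0.269, adjusted p = 0.00197). Hoxc10, the third member of the group (chromosome 15, 102966796 to 102971893, plus strand), had 10.8 and 7.51 CPM in thoracic TKO, 15.5 and 4.996 in thoracic WT, 43.4 and 49.7 in lumbar TKO and 48.7 and 52.4 in lumbar WT. The groups were again separate, with a log2 difference of −2.32 (SE 0.283, adjusted p = 0.0109). It overlaps a long Hoxc5 model, and 19.0% of its reads were uniquely placed. With unique reads alone it differed by −2.76 (adjusted p = 0.00287). It was not called without lumbar WT replicate 2 (adjusted p = 0.0871), nor without thoracic TKO replicate 1 (adjusted p = 0.108).

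The tested genes of groups 11 to 13 were at 0 in every thoracic library. Hoxa11, known for patterning of the forearm and kidney in mice (chromosome 6, 52242106 to 52245810, minus strand), had 6.42 and 6.26 CPM in lumbar TKO and 6.03 and 6.33 CPM in lumbar WT. The 4 lumbar libraries were nearly level, and thoracic cord was at least 156-fold lower, taking 3 reads over the 4 thoracic libraries as the limit that a count of 0 allows (0.0401 CPM; 0.153 to 0.174 CPM in a single library). Hoxd11, its paralog (chromosome 2, 74679557 to 74687016, plus strand), had 7.04 and 6.15 CPM in lumbar TKO and 7.65 and 6.43 in lumbar WT. Thoracic cord was at least 170-fold lower, and 47.4% of the reads were uniquely placed. Hoxc11 (chromosome 15, 102954427 to 102957708, plus strand) had 5.07 and 7.60 CPM in lumbar TKO and 6.93 and 7.12 in lumbar WT, and was at least 166-fold lower in thoracic cord. Adjusted p-values of these 3 genes were 0.000188, 0.000188 and 0.000286.

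Hoxc13, best known from hair and nail (chromosome 15, 102921103 to 102928814, plus strand), had 5.38 and 5.80 CPM in lumbar TKO and 2.74 and 2.71 in lumbar WT. It was at least 104-fold lower in thoracic cord (adjusted p = 0.000333), and its lumbar TKO libraries were both above the lumbar WT libraries. Hoxc12 (chromosome 15, 102936757 to 102938609, plus strand) had 1.09 and 1.16 CPM in lumbar TKO and 1.01 and 1.38 in lumbar WT. Thoracic cord was at least 28.96-fold lower (adjusted p = 0.0129). The call of Hoxc12 was lost without lumbar WT replicate 2 (adjusted p = 0.128) and without thoracic TKO replicate 1 (0.0712), where the test had fewer libraries. The 4 genes too low to test lay on the same side. Hoxa13 had 0 thoracic and 25 lumbar reads, Hoxb13 had 0 and 31, Hoxd12 had 0 and 3, and Hoxd13 had 2 and 16. The Hoxb13 reads were 10 and 16 in lumbar TKO and 5 and 0 in lumbar WT. Per exon length, the mean lumbar level in RPKM was 24.9 for Hoxc10, 15.8 for Hoxd10 and 9.61 for Hoxa10, and lay between 1.00 and 3.17 for the 5 tested genes of groups 11 to 13. Within the clusters, the level per length thus dropped between group 10 and group 11.

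**Figure D2:**
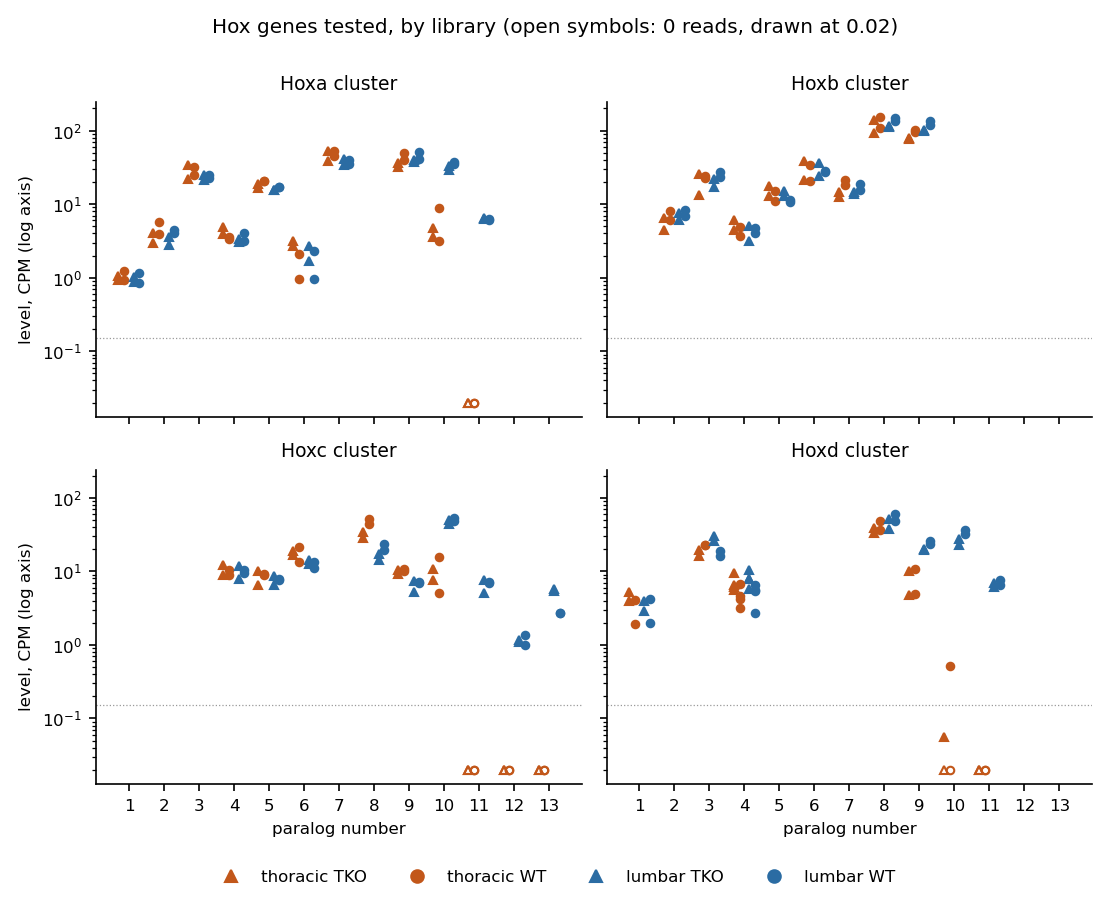
Level in CPM (log axis) of each Hox gene tested, by cluster and paralog number, in every library. Triangles are TKO and circles WT, thoracic libraries stand left of lumbar libraries, open symbols are 0 reads drawn at 0.02, and the dotted line is the lowest per-library limit of a count of 0 (0.153 CPM). Most genes up to group 9 overlap between segments, while Hoxc8, Hoxc9 and Hoxd9 do not. Hoxa10 and Hoxc10 are lower but present in thoracic cord, and Hoxd10 and the tested genes of groups 11 to 13 are at or near 0 there.

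Of 7 listed non-coding transcripts of the Hox clusters that were tested, 2 were lower in thoracic cord (0.0762% of all genes). Both passed the filter on low counts through the lumbar libraries, so only a lower call was possible and the count is a description. Hotair, a long non-coding RNA between Hoxc11 and Hoxc12 on the opposite strand (chromosome 15, 102944062 to 102947730), had 0 thoracic reads, with 2.54 and 1.22 CPM in lumbar TKO and 2.07 and 2.29 in lumbar WT. It was at least 51.1-fold lower in thoracic cord (adjusted p = 0.0105). Without lumbar WT replicate 2 its adjusted p was 0.0958, and without thoracic TKO replicate 1 it was 0.0666. Hoxa11os, the transcript antisense to Hoxa11 (chromosome 6, 52244393 to 52249799), had 1 thoracic read against 191 lumbar reads, a lumbar-to-thoracic ratio of 195 (95% counting interval 34.6 to 7749, adjusted p = 0.000207). Its reads and those of Hoxa11 cannot be told apart where they overlap, because the strand setting of the counting is not given. Gm28309, a gene model across Hoxd11 and Hoxd10 that shares their reads, had 0 thoracic reads and 10.72 to 11.96 CPM in the lumbar libraries. It is outside the list and is named here from its values (adjusted p = 9.93e-05). The other 5 of the list, Hotairm1, Hoxaas2, Hoxaas3, Hoxb5os and Hoxb3os, were not called, with log2 differences between −0.18 and 0.16. Hoxd3os1, an antisense transcript outside the list, differed by −0.29 and was not called either.

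Groups 8 and 9, which are known from thoracic identity, differed in both directions, with log2 differences from −1.53 (Hoxd9) to 1.07 (Hoxc8). Of 7 genes tested, 3 did not overlap between segments (1.17% of all genes) and 4 had an unadjusted p under 0.05 (2.43% of all genes). The gene called was Hoxc8, which directs the motor pools of the lower forelimb in mice (chromosome 15, 102990607 to 102994111, plus strand). It was higher in thoracic cord, with 33.8 and 28.7 CPM in thoracic TKO, 52.2 and 43.7 in thoracic WT, 17.4 and 14.3 in lumbar TKO and 19.6 and 23.3 in lumbar WT (log2 1.07, SE 0.136, adjusted p = 0.0129). The segments were separate in each genotype, and WT was above TKO in both segments. Only 5.02% of its reads were unique because a Hoxc5 model spans it. With unique reads the log2 difference was 1.36 but the adjusted p was 0.89, and 5 of the 8 fits that left out a library did not call it. Without thoracic TKO replicate 1, for example, the adjusted p was 0.111.

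Hoxd9, which acts in limb and lumbar patterning in mice, had 10.2 and 4.82 CPM in thoracic TKO, 10.6 and 4.84 in thoracic WT, 19.2 and 20.1 in lumbar TKO and 23.4 and 26.0 in lumbar WT. All 4 thoracic libraries were below all 4 lumbar libraries, but the adjusted p was 0.142 (log2 −1.53, SE 0.268). Hoxc9 averaged 10.2 ± 0.708 CPM in thoracic cord and 6.66 ± 1.01 CPM in lumbar cord without overlap (adjusted p = 0.796), and 1.12% of its reads were unique. Hoxb9 (log2 −0.35), Hoxd8 (−0.32), Hoxa9 (−0.13) and Hoxb8 (−0.04) overlapped. Groups 5 to 7, of brachial identity, had 0 of 8 genes called and a median log2 difference of 0.19. Groups 1 to 4, of the hindbrain and neck, had 0 of 10 called and a median of 0.11. Some members of these groups share reads with overlapping models and are not separate measurements. Unique reads were 0.418% for Hoxa5, 2.00% for Hoxc6, 0.365% for Hoxa3 and 0.554% for Hoxa4, while Hoxa7 and Hoxb3 had 100%. The median over all genes tested was 0.00. The files split Hoxd4 into a pair of overlapping models, at −0.35 and 0.03, outside these counts.

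The other 3 higher genes, outside the Hox clusters, were Vip, Cyp26b1 and Frem3. Promoter windows are shown for Vip and Cyp26b1, with the same capitals.
Vip: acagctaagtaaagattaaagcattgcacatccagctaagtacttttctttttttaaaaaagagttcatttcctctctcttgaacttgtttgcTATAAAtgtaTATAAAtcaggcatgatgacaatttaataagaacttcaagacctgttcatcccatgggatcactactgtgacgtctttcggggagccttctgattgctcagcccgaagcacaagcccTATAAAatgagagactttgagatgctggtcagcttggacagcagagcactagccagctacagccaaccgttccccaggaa
Cyp26b1: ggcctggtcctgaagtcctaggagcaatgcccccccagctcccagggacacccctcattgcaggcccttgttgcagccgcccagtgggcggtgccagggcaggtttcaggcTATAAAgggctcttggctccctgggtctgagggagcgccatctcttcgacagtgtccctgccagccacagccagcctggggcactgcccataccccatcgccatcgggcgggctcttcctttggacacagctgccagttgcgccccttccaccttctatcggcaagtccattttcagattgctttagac
The windows are chr10:5638968-5639267 on the plus strand for Vip and chr6:84593761-84594060 on the minus strand for Cyp26b1. Vip holds TATAAA at 3 places, 157, 147 and 30 bases before the start, and Cyp26b1 at 1 place, 139 bases before it. TGACGTCA, the full palindrome of the cAMP response element, which 1.79% of windows hold, was in neither as an exact match. The Vip window holds TGACGTCT, which differs from it in the last base only. Variants of the element were not searched for, so its absence is not shown. The direct repeat bound by retinoic acid receptors, spaced by 5 bases, was in neither and in 3 of the 32817 windows.

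Vip encodes vasoactive intestinal peptide, a neuropeptide of autonomic and sensory neurons (chromosome 10, 5639218 to 5647617, plus strand). Its level was 3.83 and 4.82 CPM in thoracic TKO, 4.95 and 4.64 in thoracic WT, 0.621 and 0.986 in lumbar TKO and 1.34 and 1.65 in lumbar WT. Every thoracic library was more than 2-fold above every lumbar library. The means were 4.56 ± 0.505 CPM in thoracic cord and 1.15 ± 0.444 CPM in lumbar cord (SD, n = 4 libraries each), a log2 difference of 2.02 (SE 0.238, adjusted p = 0.00989). The counts behind it were 342 thoracic and 84 lumbar reads. Without thoracic TKO replicate 1 the difference was as large (log2 2.02) and the adjusted p was 0.0712.

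Cyp26b1, an enzyme that breaks down retinoic acid, the signal that sets Hox expression along the embryonic axis (chromosome 6, 84571414 to 84593908, minus strand), had 7.21 and 7.29 CPM in thoracic TKO and 7.35 and 9.73 CPM in thoracic WT. In lumbar TKO it had 2.90 and 2.26 CPM and in lumbar WT 4.64 and 3.30 CPM. The segments were separate, with a log2 difference of 1.29 (SE 0.19, adjusted p = 0.0412). Frem3, a matrix protein of the Fras1 family (chromosome 8, 80611080 to 80695356, plus strand), had 3.77 and 3.64 CPM in thoracic TKO, 5.26 and 5.36 in thoracic WT, 1.501 and 1.91 in lumbar TKO and 2.18 and 2.50 in lumbar WT. Its log2 difference was 1.15 (SE 0.172, adjusted p = 0.0429). Both genes lie at the threshold. Of the 8 fits that left out 1 library, 2 called Cyp26b1, those without lumbar WT replicate 1 (adjusted p = 0.0412) and without thoracic WT replicate 1 (0.0265), and 0 called Frem3, with adjusted p from 0.0783 to 0.277.

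Of the other axial and limb-level patterning genes, which include retinoic acid receptors and T-box factors, 9 of 17 could be tested. Of these, 1, Cyp26b1, was called higher, as were 0.0234% of all genes. The list otherwise leaned the other way, with 7 of 9 below 0 and a median log2 difference of −0.13. Aldh1a2, which makes retinoic acid, was measured at 1.498 and 4.82 CPM in thoracic TKO, 6.94 and 14.9 in thoracic WT, 5.02 and 9.80 in lumbar TKO and 17.9 and 11.4 in lumbar WT. The segments overlapped widely (log2 −0.79, SE 0.383, unadjusted p = 0.0656 in edgeR). Rarb, a receptor for retinoic acid, averaged 6.78 ± 1.22 CPM in thoracic cord and 9.12 ± 1.10 CPM in lumbar cord (SD, n = 4 libraries each), also with overlap. Gdf11, a ligand that positions the trunk-to-lumbar border in mouse embryos, differed by −0.12 on the log2 scale. Cdx2 and Pitx1 were at 0 reads in all libraries.

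**Figure D3:**
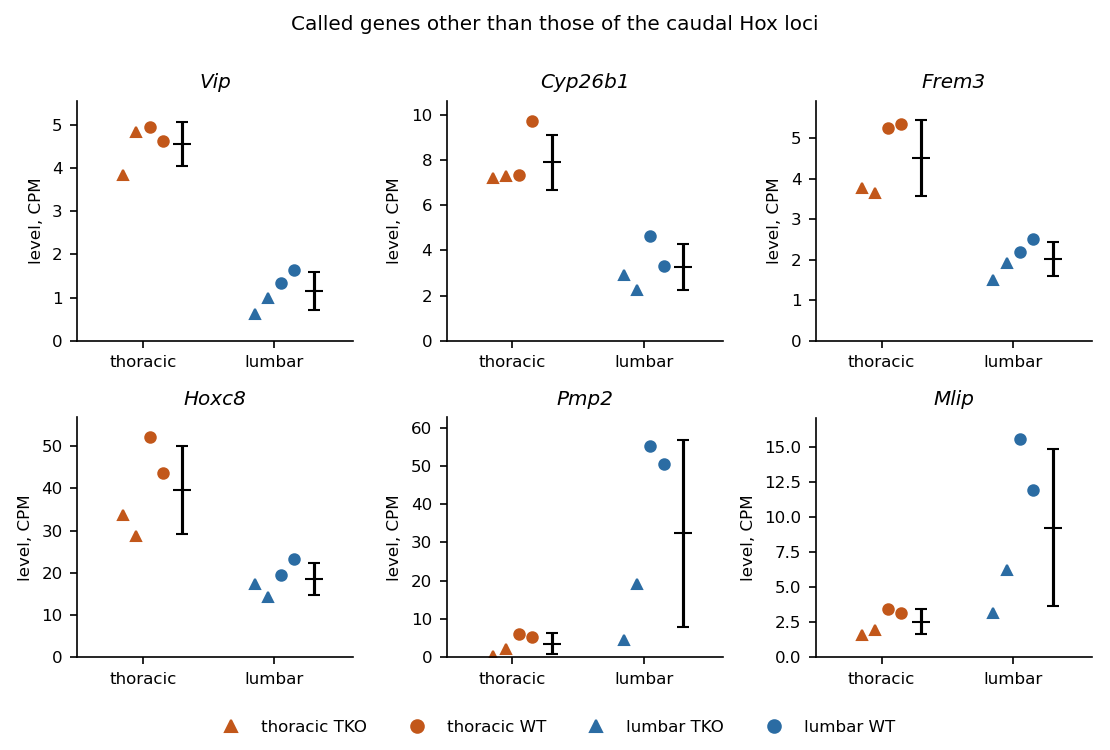
Level in CPM of the 6 called genes other than those of the caudal Hox loci, in every library (triangles TKO, circles WT), with the mean and SD of the 4 libraries of a segment in black. Vip, Cyp26b1, Frem3 and Hoxc8 separate the segments, and Pmp2 and Mlip overlap, with lumbar TKO replicate 1 inside the thoracic range.

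The 2 lower genes outside the Hox clusters spread more. Pmp2, the P2 protein of peripheral myelin (chromosome 3, 10179851 to 10183929, minus strand), had 0.499 and 2.24 CPM in thoracic TKO, 6.13 and 5.46 in thoracic WT, 4.61 and 19.1 in lumbar TKO and 55.1 and 50.6 in lumbar WT. Lumbar TKO replicate 1 fell inside the thoracic range and the other 3 lumbar libraries lay above it (log2 −3.15, SE 0.439, adjusted p = 0.0284). Another model, Gm37389, overlaps it, 7.79% of its reads were unique, and with unique reads the adjusted p was 0.0506. Mlip, which encodes a lamin-binding protein of muscle and was named after its values were seen (chromosome 9, 77102081 to 77352969, minus strand), had 1.61 and 1.96 CPM in thoracic TKO, 3.47 and 3.19 in thoracic WT, 3.16 and 6.21 in lumbar TKO and 15.6 and 11.96 in lumbar WT. Its log2 difference was −1.75 (SE 0.249, adjusted p = 0.0325). Each was called in 2 of the 8 fits with a library left out, and without thoracic WT replicate 1 the adjusted p was 0.596 for Pmp2 and 0.147 for Mlip.

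Schwann cells myelinate the nerve roots and not the cord itself. Of 13 Schwann cell genes tested, 11 had a log2 difference below 0, with a median of −2.04 against 0.00 over all genes, and 10 had an unadjusted p under 0.05, against 2.43% of all genes. Only Pmp2 passed the adjusted test (0.0762% of all genes were called lower). The summed level was 61.5 and 199 CPM in thoracic TKO, 142 and 252 in thoracic WT, 192 and 1271 in lumbar TKO and 1991 and 1171 in lumbar WT. Lumbar TKO replicate 1 lay within the thoracic range, and the other 3 lumbar libraries were more than 4-fold above every thoracic library. Prx and Egr2, a scaffold and a transcription factor of myelinating Schwann cells, had log2 differences of −2.93 and −2.16, and Dhh, a Schwann cell ligand, −2.33. None of the 3 was called by edgeR in the pooled comparison. Some alternatives with all 8 libraries did call them, DESeq2 for Dhh, the intron share as a covariate for Prx and the replicate block for Egr2. Cdh19 and Mal2 differed by 0.01 and 0.09. Of the Schwann genes, 4 were called in WT alone and 0 in TKO alone, and 7 with the 3 libraries of extreme mitochondrial share left out, Egr2 and Prx among them. With lumbar TKO replicate 1 left out, 4 were called and the median was −2.45, and without lumbar TKO replicate 2 the median was −1.42. The part of Schwann cell RNA in the call of Pmp2 was not tested.

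Of the 21 listed skeletal muscle genes, 16 could be tested. All 16 had a log2 difference above 0, with a median of 1.70, and 0 were called. Myh8, Mb, Myh1 and Myh2 were among the members that passed the filter on low counts through thoracic libraries alone. For such genes a difference above 0 was favoured in advance, so the count of 16 is a description. The summed level was 34.0 and 22.04 CPM in thoracic TKO, 149 and 29.1 in thoracic WT, 19.5 and 17.4 in lumbar TKO and 22.3 and 15.95 in lumbar WT. Thoracic WT replicate 1 stood apart, for example with 16.5 CPM of Tnnt3, a fast troponin, where the other 7 libraries had 0.29 to 1.89. Without that library the median was 0.72. Myh8, the perinatal myosin heavy chain, had 1.72 and 1.63 CPM in thoracic TKO, 0.97 and 1.75 in thoracic WT and 0.414 to 0.479 in the 4 lumbar libraries. The segments did not overlap, and the adjusted p was 0.138. Meningeal fibroblast genes had a median of −0.27 with 16 of 24 below 0 and 0 called, and their sums overlapped between segments. Dcn, a matrix proteoglycan, averaged 26.0 ± 14.3 CPM in thoracic cord and 49.2 ± 25.5 CPM in lumbar cord (SD, n = 4 libraries each, adjusted p = 0.317).

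**Figure D4:**
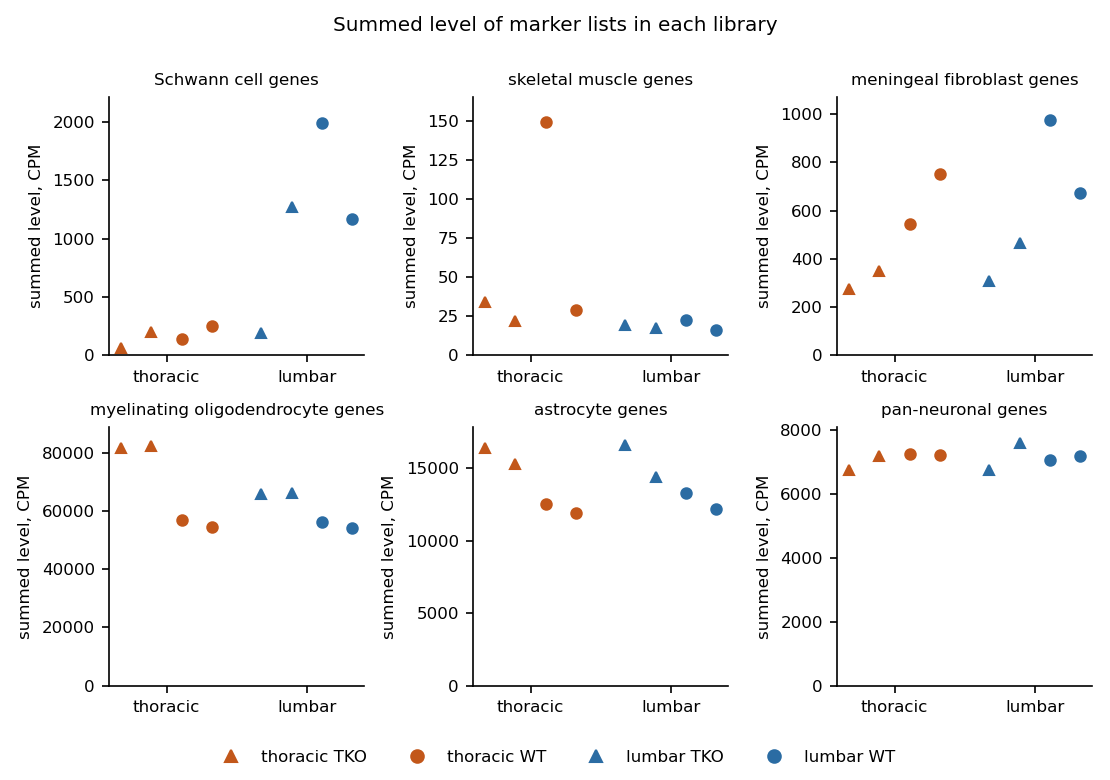
Summed level in CPM of 6 marker lists in each library (triangles TKO, circles WT), each axis from 0. Schwann genes are high in 3 of 4 lumbar libraries, muscle genes in 1 thoracic WT library, and the pan-neuronal sum stays between 6753 and 7591 CPM in both segments.

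Lists for the neurons that differ between the segments in anatomy showed 0 calls. Cholinergic motor neuron genes had a median of −0.09 over 12 genes, lateral motor column genes 0.03 over 8 and genes of alpha and gamma motor neurons −0.05 over 15. The cholinergic median was 0.14 in TKO and −0.32 in WT, a difference that was not tested. Etv4, a factor of limb motor pools, had 25.9 and 26.8 CPM in thoracic TKO, 22.4 and 25.8 in thoracic WT, 32.4 and 32.3 in lumbar TKO and 39.2 and 33.1 in lumbar WT. The segments did not overlap, as for 1.17% of all genes, but the difference was small (log2 −0.44, SE 0.123) and not called. Mmp9, a marker of fast alpha motor neurons, averaged 6.70 ± 0.731 CPM in thoracic cord and 10.1 ± 1.21 CPM in lumbar cord without overlap (log2 −0.59, adjusted p = 0.9). Nkx6-1 (log2 −0.49) also did not overlap. Chat, which makes acetylcholine, averaged 14.6 and 13.7 CPM in thoracic and lumbar cord.

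Genes of preganglionic neurons had a median of 0.12 with 6 of 6 above 0, and of 0.02 in TKO and 0.27 in WT. Nos1, the neuronal nitric oxide synthase of these cells, averaged 45.4 ± 5.78 CPM in thoracic cord and 35.1 ± 7.15 CPM in lumbar cord (log2 0.39, SE 0.127) and overlapped. In the Clarke column list, Slc17a7, a vesicular glutamate transporter, was separate, with 6.66 and 5.16 CPM in thoracic TKO, 4.70 and 4.89 in thoracic WT, 0.621 and 3.19 in lumbar TKO and 0.279 and 2.18 in lumbar WT. Lumbar replicate 1 of each genotype was low and replicate 2 was above 2 CPM, and the difference was not called (log2 1.79, SE 0.499). The other 3 Clarke genes differed by −0.21 to 0.23, and the list's median was −0.05 in TKO and 0.51 in WT. Pkd2l1, the channel that defines neurons in contact with the cerebrospinal fluid, averaged 11.2 ± 3.16 CPM in thoracic cord and 6.86 ± 1.80 CPM in lumbar cord (log2 0.72, adjusted p = 0.532).

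Interneuron transcription factors had a median of −0.03 over 33 genes. Gata3, of an inhibitory class, averaged 0.88 ± 0.106 CPM in thoracic cord and 0.558 ± 0.0656 CPM in lumbar cord (SD, n = 4 libraries each). The segments did not overlap, and it was not called. Dorsal horn peptides and receptors had a median of 0.01 over 24 genes, and Trh, a releasing hormone, had the smallest p among them (log2 −0.78). Inhibitory transmission genes had a median of 0.02 over 22. Oligodendrocyte genes had a median of 0.09 with 22 of 26 above 0, where the median was 0.23 in TKO and −0.07 in WT. Astrocyte genes had a median of −0.07 over 24 and pericyte and smooth muscle genes −0.16 over 12. In each of these lists 0 genes were called, and a missed threshold does not show equal levels.

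**Figure D5:**
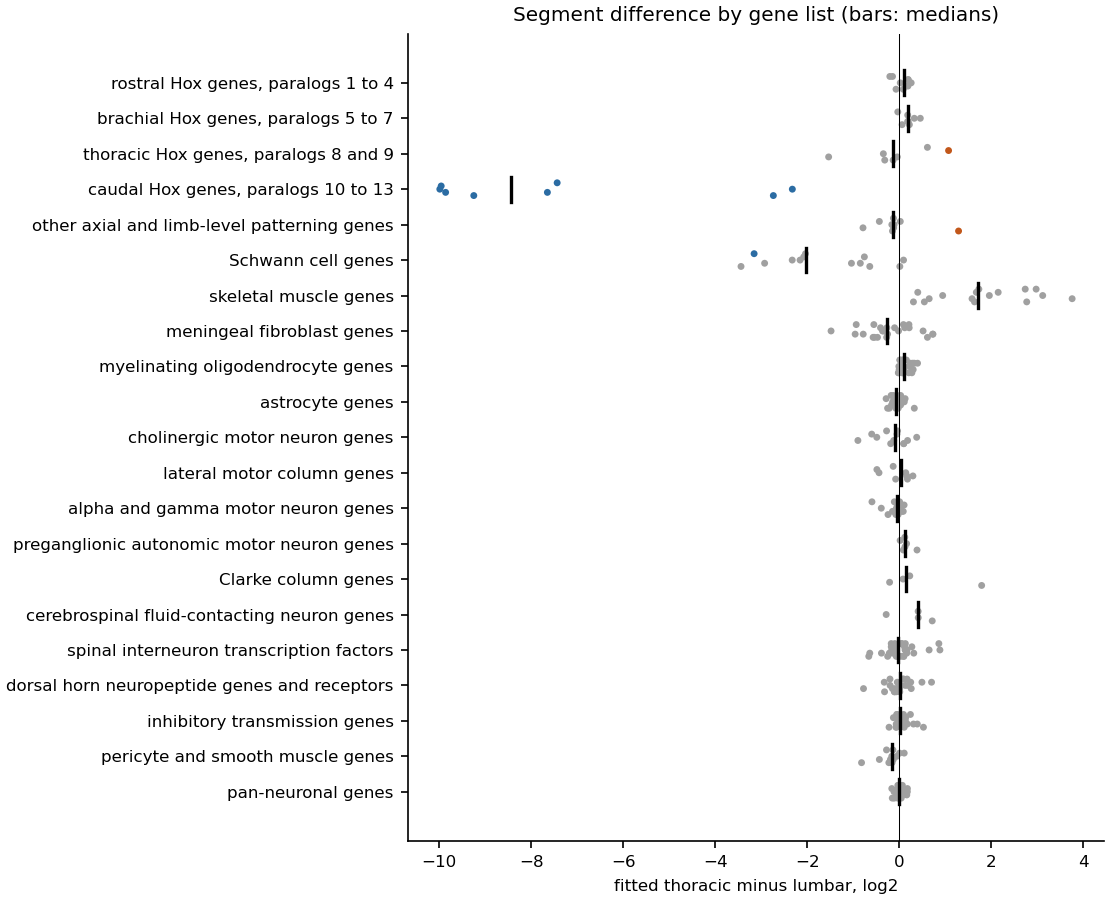
Fitted thoracic minus lumbar difference (log2) of each gene tested in 21 lists, called genes in orange (higher) or blue (lower), others in grey, with the list median as a black bar. Caudal Hox genes lie far left, Schwann genes left and muscle genes right, and most neuronal and glial lists centre near 0.

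The genotypes were also taken apart, with 2 thoracic and 2 lumbar libraries for each, in 1 fit that shares the estimate of spread. In TKO 8 genes were called (0.0469%) and in WT 7 (0.041%). The 7 called in both were Gm28309, Hoxa11, Hoxd10, Hoxd11, Hoxc11, Hoxc13 and Hoxa11os, and all 7 were lower in thoracic cord. These 7 had 0 to 11 thoracic reads and passed the filter through the lumbar libraries, so only a lower call was possible. All 17 genes of the pooled comparison had the same sign in TKO and in WT. The 17 were selected over these same libraries, so the shared sign is a description. Vip had log2 differences of 2.43 in TKO (adjusted p = 0.0658) and 1.68 in WT (0.381), Hoxa10 −2.90 (0.0817) and −2.58 (0.158), and Cyp26b1 1.48 and 1.11.

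The difference between the TKO and the WT segment effect was called for 1 gene of 17067 (0.00586%). An unadjusted p under 0.05 was reached by 597, fewer than the 853 that would be reached without any effect. The gene called was Gm42416, a gene model across the protocadherin clusters on chromosome 18, named although it has only a number. It had 8.04 and 9.70 CPM in thoracic TKO, 0 and 0 in lumbar TKO, 11.4 and 11.4 in thoracic WT and 10.8 and 7.60 in lumbar WT (adjusted p = 0.0146). By total gene reads, lumbar TKO was the only group at 0. The RPKM of Gm42416 in the authors' tables was 0 in every library of every group, so the call rests on total gene reads alone. Gm42416 had 0% unique reads, so it cannot be told apart from the genes it spans. With unique reads it could not be tested. The call was lost without thoracic TKO replicate 2 and without thoracic WT replicate 1. Of the named genes, Prph, an intermediate filament of motor and sensory neurons, had an unadjusted p of 0.00456 for this difference in edgeR, with log2 differences of −0.04 in TKO and −1.16 in WT (adjusted p = 0.852 for the difference). Hoxd3, with 15.9% unique reads, had log2 differences of −0.65 in TKO and 0.36 in WT, with an adjusted p of 0.852 as well.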

How the data were processed

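Each library has its own table of 41325 genes, in which the authors deposited read counts (total, unique, exon and intron) and RPKM, per the file headers. Per the submitters' processing notes, reads were placed on mm10. Aligner, counter and strand setting were not given in the sources used here. Per the labels' protocols, a column kit gave the RNA and a stranded mRNA kit the libraries.

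Total gene reads were scaled with TMM factors, low genes were filtered with filterByExpr, and 17067 genes were tested with edgeR 4.0.16 (quasi-likelihood, robust; R 4.3.3), with segment and genotype as terms and Benjamini-Hochberg adjustment at 0.05. CPM use library sizes adjusted by TMM. Standard errors (SE) of log2 differences were calculated back from the difference and its quasi-likelihood p-value. The same segment contrast was made within TKO and WT, and the difference between them was tested, in a fit with a mean per group. DESeq2 1.42.0, limma 3.58.1 (voom, and log2 of RPKM plus 0.5), other scalings, filters and count columns, covariates and leaving out libraries were alternatives. Tables and figures used Python 3.11.15.

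Named are up to 15 genes in each direction of largest fold among those called, averaging at least 1 CPM in the higher segment, without overlap, up to 4 members of smallest p and all called members of each list described, all tested Hox genes, and the 5 genes of smallest p for the difference of segment effects. Numbered gene models were counted, not named, unless the text says so, and some genes the rule names are not reported here. The lists and genes were chosen with earlier results of these data known. The replicate numbers were not treated as pairing libraries, because the deviations of same-numbered libraries correlated at 0.68 in TKO and −0.61 in WT. Libraries of other segment and genotype correlated as strongly, for example lumbar TKO replicate 1 with thoracic WT replicate 1 at 0.76. The main fit has no term for such shared deviations, and their effect on it was not tested. A count of 0 allows up to 3 reads. Such limits and the 95% ratio intervals, exact, cover counting error only. Libraries of 1 group differed by more than counting noise (chi-square over degrees of freedom 14.6 to 65.7), and each entered once. Tested on simulated counts over 16830 genes, this comparison recovered 77% of 100 genes changed 2-fold and 100% of 100 changed 4-fold. It made 9 false calls among 16630. In those counts 4.82% of unchanged genes had an unadjusted p under 0.05 in edgeR, against 2.43% of all genes in the data. The counts thus differed from the data in this respect, and recovery in the real libraries was not tested. Promoter windows were held for 9 of the 17 called genes.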

Additional observations from a re-analysis of the deposited data

Results flagged for a closer look

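In 209 sets of 4 libraries of 1 segment, 1 library stood far from the other 3 in 8 (3.83%), where chance alone gives about 1 in 20. Thoracic WT replicate 1 accounted for 3 of them, with 0.51 CPM of Hoxd10 against 0 to 0.0555 in the other thoracic libraries, 16.5 CPM of Tnnt3 against 0.561 to 1.89, and 0.97 CPM of Myh8, below 1.63 to 1.75. Thoracic WT replicate 2 had 9.73 CPM of Cyp26b1, above 7.21 to 7.35. Thoracic TKO replicate 2 held the single thoracic read of Hoxa11os (0.0561 CPM). Lumbar TKO replicate 2 had 0.58 CPM of Evx1, a factor of excitatory interneurons, above 0.362 to 0.391, and 30.5 CPM of Gucy1a1, a nitric oxide receptor subunit, below 44.0 to 45.5. Lumbar WT replicate 1 had 39.2 CPM of Etv4, above 32.3 to 33.1.

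The segment effect of Gm42416 differed between TKO and WT by 10.05 on the log2 scale in edgeR's test of that difference. The lumbar TKO libraries were at 0 total gene reads, so this fitted value depends on a prior count and is no measured fold.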

How the results depend on the processing

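The pooled comparison called 4 genes higher and 13 lower. DESeq2 called 8 and 26, limma-voom 2 higher, limma on log2 of RPKM 2 higher, no genotype term 1 higher, the mitochondrial share as a covariate 7 and 21, the intron share 2 and 20, both TKO replicate 2 libraries left out 2 higher, WT alone 0 higher and TKO alone 2 higher. Leaving out 1 library gave 0 to 3 higher and 8 to 27 lower genes. The total was 8 without thoracic TKO replicate 1, 9 without lumbar WT replicate 2 and 29 without lumbar TKO replicate 1. DESeq2 kept all 17 genes. Hoxd10, Hoxd11, Hoxa10, Hoxa11, Hoxa11os, Hoxc11, Hoxc13 and Gm28309 were called in all 8 of these fits. The causes were not tested.

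The replicate block, with the numbers as pairs, gave 21 lower and 4 higher genes and kept 16 of the 17. It gave 19 in TKO, 18 in WT and 3 for the difference. It called 4 Schwann genes, Egr2 among them, and the crossed pairing 7. A crossed pairing, added after seeing the data, gave 9 higher and 32 lower. Leaving out the 3 libraries of extreme mitochondrial share, also added later, gave 17 and 41.

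In TKO 8 genes were called, against 18 by DESeq2, 14 with no filter and 5 to 11 with a library left out. In WT 7 were called, against 20, 11 and 4 to 11. The difference called 1 gene, against 2 by DESeq2, 0 with unique reads, where Gm42416 has none to test, and 0 to 2 with a library left out. Of the named genes' values under alternatives, 2903 kept their side of the threshold, 79 lost a call, 28 gained one and 0 reversed among called values. A change of direction was counted only where a fit called the gene, so uncalled values among the 2903 can differ in direction.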

Other observations

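Outside the 17 called genes, 7 were called by 5 or more of 28 alternatives, and all 7 had lower fitted levels in thoracic cord. They were chosen after their values were seen. Besides Hoxd9, Dcn and Dhh they were Adh1, Col15a1, Cldn19 and Col6a6. Adh1, an alcohol dehydrogenase that can oxidise retinol, had 0.998 and 2.24 CPM in thoracic TKO, 1.89 and 2.47 in thoracic WT, 2.74 and 6.26 in lumbar TKO and 7.71 and 5.37 in lumbar WT. The segments did not overlap (log2 −1.53, adjusted p = 0.347 in edgeR). Cldn19, a claudin of Schwann cell myelin, had 0.666 and 3.81 CPM in thoracic TKO, 2.45 and 5.10 in thoracic WT, 3.57 and 20.1 in lumbar TKO and 30.1 and 20.5 in lumbar WT. Lumbar TKO replicate 1 was inside the thoracic range, as for Pmp2.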
